A study of Mus musculus with 3 samples.

Results

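Monocyte-type cells were counted in the injured sciatic nerve of C57BL/6 mice 5 days after nerve crush, an injury that severs axons and leaves the outer sheath in place. A cell of the day 5 library belonged to them when it held at least 2 UMIs (unique molecular identifiers, each standing for 1 captured RNA molecule) summed over Ly6c2, Chil3 and Vcan. It also had to hold at most 2 UMIs of Arg1, at most 1 of Gpnmb and at most 1 of Cx3cr1, 200 genes or more, and no more than 10% of its UMIs from mitochondrial genes. The cells were thus chosen by measured values. The rule found 108 of the 2059 day 5 cells, or 5.25% (exact binomial 95% interval 4.32 to 6.30), out of 5580 kept cells in all 3 libraries.

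They were set against the 1816 day 5 cells with 0 UMIs of the 3 marker genes (sum-0 cells) and against the 255 of 2793 cells that met the same rule 1 day after crush (9.13%, 8.09 to 10.3). All libraries came from uninjured or crushed sciatic nerve of the same strain, and the labels call the cells macrophages; the sort and the number of animals behind each library are not stated in the labels. Only 3 of 728 cells from uninjured nerve (steady state) met the rule, so that library entered no comparison. Each time was 1 library without a replicate, so no test was possible, and time and library cannot be told apart.

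Classical monocytes are blood cells made in the bone marrow that carry the surface protein Ly6C and the chemokine receptor CCR2, enter injured tissue from the circulation and there lose Ly6C as they become macrophages. After a nerve crush, blood-derived cells join the resident macrophages of the nerve and take part in clearing myelin and axon debris. Ly6c2 codes for the Ly6C protein, Chil3 for the chitinase-like protein Ym1, and Vcan for the matrix proteoglycan versican.

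Depth was similar between the libraries, with a median of 2473 UMIs per kept cell at day 5 and 2555 at day 1. Because the rule counts raw UMIs, it favours deep cells: the monocyte-type cells had a median of 3768.5 UMIs (range 897 to 7823), the sum-0 cells 2285, and the day 1 monocyte-type cells 3309. After each cell was thinned to 1000 UMIs, the same rule found 58 of 1777 at day 5 (3.26%, 2.49 to 4.20) and 259 of 2496 at day 1 (10.4%, 9.21 to 11.6). The upper limits were applied to the thinned counts too, so thinning eased them while it tightened the marker sum. The thinned day 1 group thus took in cells that were over a limit at full depth. Levels below are CPM, the UMIs of a gene summed over a group of cells and scaled to 1000000. Every interval is at 95% and covers counting error only, not the variation between cells or animals. A total of 11 barcodes occurred in both the day 5 and the day 1 library, and 3 in both the day 5 and the steady-state library; none of the 108 cells carried one of them.

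The values that chose the cells came almost wholly from Ly6c2 and Chil3. The 108 cells held 477 UMIs of Ly6c2 in 79 cells and 212 UMIs of Chil3 in 56 cells, which was 68.7% and 70.9% of all UMIs of these genes in the day 5 library. Vcan gave 2 UMIs, both in 1 cell. At day 1, by contrast, the 255 cells held 604 UMIs of Ly6c2 in 128 cells, 1794 of Chil3 in 210 cells and 141 of Vcan in 70 cells. Ly6c2 led the sum in 67 of the 108 day 5 cells (62.0%) and Chil3 in 38 (35.2%), against 72 (28.2%) and 159 (62.4%) of the 255 day 1 cells. These counts describe the rule's own genes.

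Ly6c2 and Chil3 each have a near-identical neighbour, and the last 300 bases of the longest annotated transcripts, the end that this droplet method reads, were 98.0% identical between Ly6c2 and Ly6c1 and 89.97% identical between Chil3 and Chil4. The neighbours were close to absent, with 3 UMIs of Ly6c1 and 0 of Chil4 in the 108 cells; how reads matching both copies were counted is not stated in the labels, so the levels of these genes are uncertain.

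Marker sums ran from 2 to 36 UMIs per cell with a median of 4 at day 5, and from 2 to 73 with a median of 6 at day 1. The plot of marker sums shows that 28 of the 108 day 5 cells stood on the threshold itself with 2 UMIs, 22 had 3 and 26 had 10 or more. Just outside it stood 106 day 5 cells with 1 UMI, of which 52 held Ly6c2, 49 Chil3 and 5 Vcan. Another 29 day 5 cells reached the sum but were over a limit: 21 over that for Cx3cr1, 7 for Arg1 and 7 for Gpnmb. At day 1 the limits removed far more cells, 723, and 701 of these were over the Arg1 limit.

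**Figure D1:**
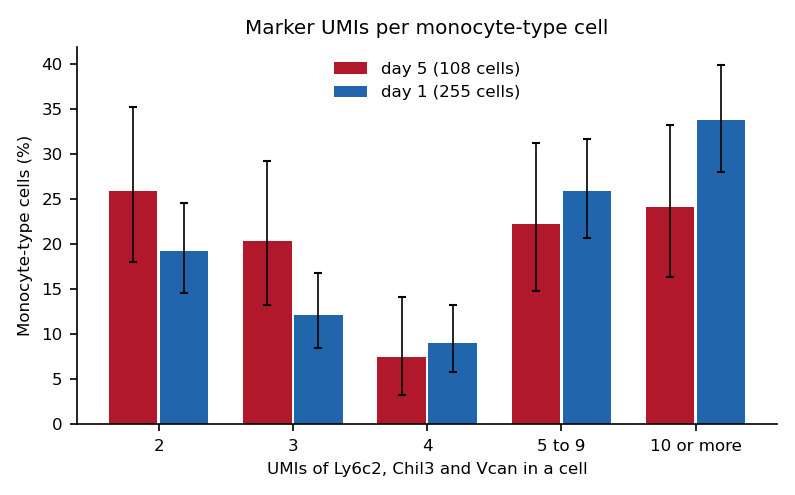
Share of monocyte-type cells (percent, vertical axis) by the number of UMIs of Ly6c2, Chil3 and Vcan in the cell, at day 5 (red, 108 cells) and day 1 (blue, 255 cells), with exact binomial 95% intervals. Sums of 10 or more made up 24.1% at day 5 and 33.7% at day 1.

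Free RNA in a droplet library can give a cell UMIs of genes it does not express. Among 104 day 5 cells with at least 2 UMIs of the resident macrophage genes Cd209f, Cd209d, Cd209g and Fcna, 4 held any marker UMI (3.85%, 1.06 to 9.56) and 1 held 2 or more (0.962%, 0.0243 to 5.24), at a median depth of 1892.5 UMIs. Among 179 day 5 cells with at least 2 UMIs of 12 dendritic cell genes, 14 of them monocyte-type cells, 29 held any marker UMI (16.2%, 11.1 to 22.4). At least 2 were held by 18 (10.1%, 6.07 to 15.4), at a median depth of 3614. Over all 2059 day 5 cells, 243 held at least 1 marker UMI (11.8%, 10.4 to 13.3) and 137 at least 2 (6.65%, 5.62 to 7.82), at a median depth of 2473. The summed level of the 3 genes was 37.8 CPM in the resident macrophage cells, 159 CPM in the cells with dendritic genes and 181 CPM over all day 5 cells.

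The label was checked with Plac8, a classical monocyte marker that the rule did not use. Plac8 stood at 2129 CPM in the monocyte-type cells and at 271 CPM in the sum-0 cells, a ratio of 7.86 (7.20 to 8.59). It was detected in 92 of the 108 cells. At 1000 UMIs per cell, 65.7% of the monocyte-type cells (69 of 105, 55.8 to 74.7; 3 shallower cells left out) held a Plac8 UMI, against 14.6% of the sum-0 cells (225 of 1546, 12.8 to 16.4; 270 left out). Without thinning the shares were 85.2% and 21.3%.

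Apart from dendritic cell genes and Prtn3, markers of the other cell types listed here were close to absent from the 108 cells. All 9 neutrophil genes (S100a8, S100a9, Ly6g and Cxcr2 among them) and all 8 mast cell and eosinophil genes stood at 0 UMIs, where 3 UMIs would be 7.47 CPM. Of the T and NK cell genes 7 of 8 were at 0, of the B cell genes 5 of 6, of the fibroblast genes 6 of 7, of the endothelial genes 5 of 6 and of the Schwann cell genes 4 of 8, with 3, 9, 1, 2 and 5 UMIs for the whole lists. The sum-0 cells had 72 UMIs of the neutrophil list and 351 of the Schwann cell list, or 15.5 and 75.7 CPM. Dendritic cell genes gave 77 UMIs (192 CPM), 45 of them from the transcription factor Batf3, while Zbtb46, Xcr1, Clec9a and Ccl22 were at 0. The sum-0 cells had 214 CPM of the same list. At least 2 UMIs of it were held by 14 of the 108 cells and by 150 of the 1816 sum-0 cells, which were shallower. Of the 9 progenitor granule genes only Prtn3, the gene of proteinase 3, was detected, with 65 UMIs and 162 CPM, against 60.4 CPM in the sum-0 cells (log2 ratio 1.42, or 0.81 with the rule on thinned cells).

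The cells also held RNA of macrophage genes. Apoe, a lipid carrier that macrophages make in large amounts, was present in all 108 cells at 39790 CPM, against 55195 CPM in the sum-0 cells, and C1qa, a complement gene of tissue macrophages, was present in 83 of them. At 1000 UMIs per cell, C1qa was found in 63 of 105 monocyte-type cells and in 1347 of 1546 sum-0 cells. Doublets were not removed, and the part of free RNA and doublets in these values was not tested.

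The first comparison asked how the monocyte-type cells differed from the sum-0 cells of the same library. Genes of classical monocytes and of the interferon response, and Il1b, were higher in the monocyte-type cells, and genes of mature and resident macrophages were lower. Of the 2582 genes that reached 50 CPM in 1 of the groups, leaving out the 6 genes of the rule, 203 were at least 2-fold higher in the monocyte-type cells (7.86%) and 93 at least 2-fold lower (3.60%). The median log2 ratio of all 2582 genes was 0.14. Since the groups were chosen by RNA of the same cells, these ratios describe the chosen cells. With median-of-ratios scaling, which shifted all log2 ratios down by a median of 0.10, the counts were 160 higher and 133 lower. Without the cell with the most UMIs of each gene, in both groups, they were 98 and 146.

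Of the 27 measured genes of the classical monocyte list, 11 were past 2-fold higher and 0 past 2-fold lower, with a median log2 ratio of 0.59. Hp, which codes for the hemoglobin scavenger haptoglobin, stood at 485 CPM in the monocyte-type cells against 53.9 CPM in the sum-0 cells, a ratio of 9.004 (7.43 to 10.9). Mcemp1 stood at 110 against 11.4 CPM, a ratio of 9.58 (6.28 to 14.6), and was seen in 17 of the 108 cells. The membrane protein gene Ms4a4c stood at 724 against 115 CPM, 6.29 times as high (5.43 to 7.27). Ccr2, the receptor that draws monocytes into tissue, stood at 727 against 282 CPM, 2.58 times as high (2.26 to 2.93), and at 1000 UMIs per cell it was found in 44.8% of the monocyte-type cells (35.05 to 54.8) and 17.98% of the sum-0 cells.

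The other classical monocyte genes past 2-fold were Gsr, Sirpb1c, Ifitm6, Napsa, Clec4e and Ms4a6c. Gsr, the glutathione reductase gene, stood at 137 against 29.3 CPM, Sirpb1c at 326 against 81.1 CPM, and Clec4e, a receptor for damaged cells, at 147 against 53.9 CPM. Genes of the list that are abundant in all the cells differed less: Lyz2, the lysozyme gene, stood at 27618 CPM in the monocyte-type cells and 23608 CPM in the sum-0 cells, a log2 ratio of 0.23. The calcium-binding S100a10 (log2 ratio -0.27), Fn1 (-0.04), F13a1 (-0.75) and Clec4d (-0.94) were no higher than in the sum-0 cells. Of 15 nonclassical monocyte genes 2 were measured and none was past 2-fold. The whole list had 279 UMIs (695 CPM), 190 of them from Nr4a1, against 519 CPM in the sum-0 cells. The rule asked for UMIs of Ly6c2, Chil3 or Vcan and limited Cx3cr1, so it cannot show how many nonclassical monocytes the library held.

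**Figure D2:**
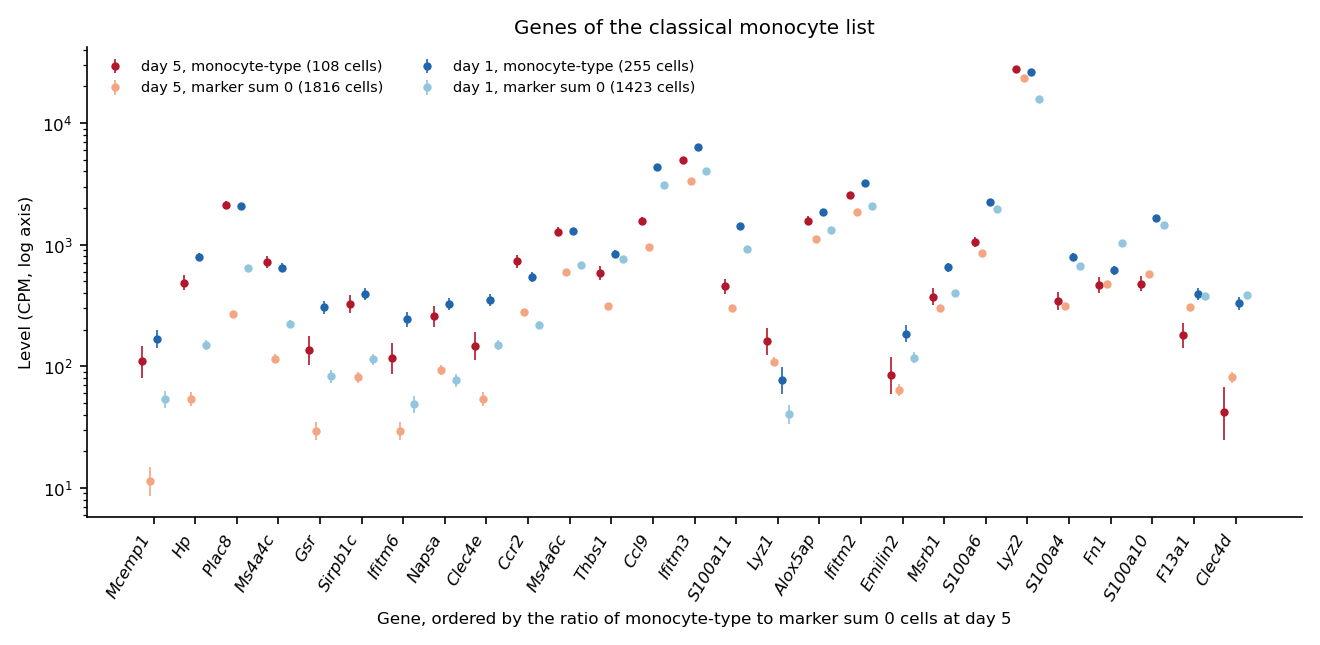
Levels (CPM, log axis) of the 27 measured classical monocyte genes in the monocyte-type and sum-0 cells of day 5 (dark and light red) and of day 1 (dark and light blue), with exact Poisson 95% intervals, ordered by the day 5 ratio. The dark red points lie above the light red ones for the genes on the left, from Mcemp1 (110 against 11.4 CPM) to Ms4a6c (1275 against 595 CPM), and meet or fall below them on the right.

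Genes of some other lists were higher too. Il1b, the gene of the inflammatory cytokine interleukin 1 beta, stood at 2587 CPM in the monocyte-type cells and 852 CPM in the sum-0 cells, a ratio of 3.04 (2.83 to 3.25). It was the only inflammatory gene of 15 measured that was at least 2-fold higher; the chemokine Ccl12 was lower, at 179 against 407 CPM. Of 18 adhesion and homing genes 3 were past 2-fold higher and 0 past 2-fold lower (median 0.54): the integrin gene Itgb7 stood at 77.2 against 15.1 CPM, the chemokine receptor gene Ccr1 at 291 against 118 CPM, and Cd44, a hyaluronan receptor, at 214 against 98.1 CPM. In the Ly6c2-led cells alone the log2 ratio was 0.76 for Ccr1, 0.77 for Cd44 and -0.76 for Ccl12, none past 2-fold, and without the upper limits it was 0.93 for Cd44. The matrix protein gene Tgfbi stood at 672 against 303 CPM. Of 13 glycolysis and hypoxia genes, 2 were at least 2-fold higher (median 0.54), the lactate exporter Slc16a3 (154 against 41.4 CPM) and Hif1a (197 against 66.0 CPM). Hif1a had 46 of its 79 UMIs in 1 cell, and a log2 ratio of 0.34 without the top cell of each group.

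Genes of mature macrophages were lower. Of 27 measured genes of the maturation list 12 were at least 2-fold lower and 0 higher, with a median log2 ratio of -0.83. The chemokine gene Pf4 stood at 441 CPM in the monocyte-type cells against 2661 CPM in the sum-0 cells, 6.04 times lower (5.21 to 7.04), Fcrls at 99.6 against 452 CPM, and the tetraspanin gene Cd9 at 42.3 against 193 CPM. The transcription factor gene Maf, which keeps macrophages mature, stood at 39.8 against 144 CPM. Of 20 lysosome and lipid genes 4 were at least 2-fold lower and 0 higher (median -0.10), among them the fatty acid carrier Fabp5 (179 against 496 CPM) and the protease Ctsd (1098 against 2472 CPM). The upper limits of the rule were not applied to the sum-0 cells; with the same limits on both groups the log2 ratio was -0.98 for Fabp5, -0.83 for Ctsd, -0.86 for Ctsb and -1.03 for Abca1, so 3 of the 4 were no longer past 2-fold, and with no limits none of the 4 was.

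Genes of the resident macrophages of the outer nerve sheath had the lowest median of the lists with at least 2 measured genes. Of 9 measured, 7 were at least 2-fold lower and 0 higher, with a median log2 ratio of -1.85. Retnla, a marker of alternatively activated macrophages, stood at 326 CPM in the monocyte-type cells against 1974 CPM in the sum-0 cells, and 44 of its 131 UMIs in the monocyte-type cells came from 1 cell. The share of cells with Retnla was similar. At 1000 UMIs per cell it was 18.1% of the monocyte-type cells (11.3 to 26.8) and 20.4% of the sum-0 cells (18.4 to 22.5). The highest cell held 182 Retnla UMIs per 10000 among the monocyte-type cells and 1325 among the sum-0 cells. The folate receptor gene Folr2 stood at 97.1 against 410 CPM. Cd209f, a lectin of the sheath macrophages, had 1 UMI in all 108 cells and 370 in the sum-0 cells. Of 11 wound repair genes 2 were higher and 4 lower (median 0.05): Spp1, which codes for osteopontin, stood at 680 against 2558 CPM, and Igf1 at 62.2 against 173 CPM.

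Some groups hardly differed. Of 15 transcription factor genes and 17 immediate early genes, none was 2-fold away, with medians of 0.33 and 0.20; Cebpb, a factor of monocytes and inflammation, stood at 1168 against 672 CPM. Of 6 measured cell cycle genes, Stmn1 was lower, at 19.9 against 131 CPM, and none was higher. MHC class II genes, whose products present antigen to T cells, were higher with a median log2 ratio of 0.66 over 9 genes, but only H2-DMb1 was past 2-fold, at 1324 against 621 CPM (log2 ratio 1.09). That call ended with the same limits on both groups (0.97), with no limits (0.95), with median-of-ratios scaling (0.99) and with the rule on thinned cells (0.85). Cd74, the class II invariant chain, stood at 20726 CPM in the monocyte-type cells and 12997 CPM in the sum-0 cells, a ratio of 1.59 (1.56 to 1.63).

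A few of the largest ratios came from single cells and describe those cells only. Of the 41 UMIs of Wdr45 in the monocyte-type cells, 39 were in 1 cell, as were 34 of the 41 of Tmub2 and 26 of the 48 of Zcchc9. Without the cell with the most UMIs of each gene, the log2 ratio was -1.25 for Wdr45 and -0.02 for Tmub2, in place of 3.03 and 2.46. With the same cells left out, 11 classical monocyte genes were past 2-fold higher and 1 was past 2-fold lower, and 13 maturation and 8 sheath genes were at least 2-fold lower.

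**Figure D3:**
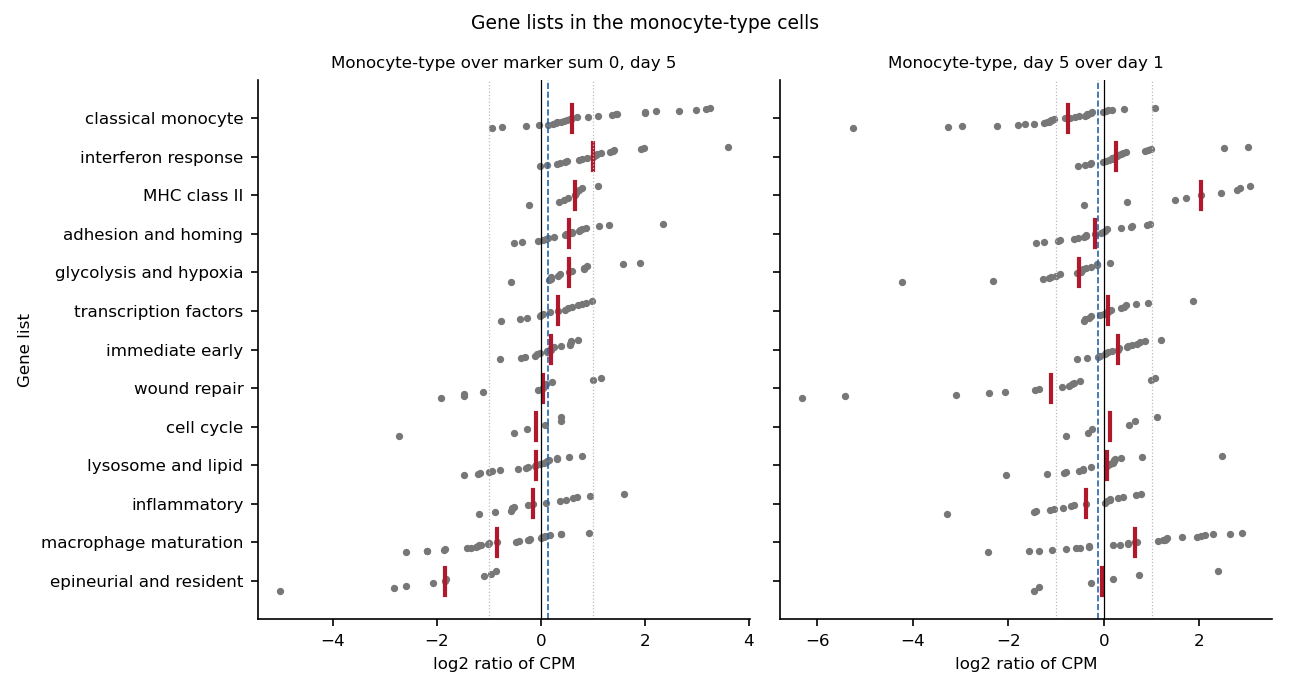
Log2 ratio of CPM (horizontal axis) for each measured gene (grey points) of 13 gene lists, monocyte-type over sum-0 cells at day 5 (left) and monocyte-type cells of day 5 over day 1 (right). Red bars mark list medians, the dashed blue line the median of all genes (0.14 left, -0.12 right) and dotted lines 2-fold. On the left the classical monocyte (0.59), interferon (1.01) and class II (0.66) medians lie right of the blue line and the maturation (-0.83) and sheath (-1.85) medians left of it; on the right class II lies farthest right (2.04).

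These differences were graded with the marker sum. In day 5 cells with a sum of 0, 1, 2, 3 to 4, 5 to 9 and 10 or more, Plac8 stood at 271, 894, 1165, 1386, 2571 and 3302 CPM. Il1b stood at 852, 1562, 1618, 2575, 2689 and 3339 CPM in the same classes. The macrophage gene Pf4 ran the other way, at 2661, 1405, 733, 449, 277 and 323 CPM, and so did Spp1, at 2558, 2173, 1143, 646, 544 and 433 CPM. The cells with a single marker UMI, which the rule left out, thus lay between the sum-0 cells and the monocyte-type cells for these 4 genes. The upper limits of the rule applied to the classes with at least 2 UMIs and not to those with 0 or 1. For Spp1 the log2 ratio of monocyte-type over sum-0 cells was -1.91. It was -1.41 with the same limits on both groups and -1.05 with no limits. The part of the limits in the step between 1 and 2 UMIs was not tested. Ccr2 was not ordered in this way, at 282, 506, 669, 908, 395 and 885 CPM.

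The class II genes were highest in the middle of the range. Cd74 stood at 12997, 16820, 23092, 22146, 21273 and 16832 CPM over the same 6 classes, and the intervals of the classes with 2 UMIs (22124 to 24091) and with 10 or more (16068 to 17622) did not overlap. The median depth of the cells in these classes was 2285, 3452.5, 3425, 3814.5, 4020.5 and 4140.5 UMIs, and its part in these levels was not tested. In the whole of the 108 cells, class II genes made up between 54.1 and 1753 of every 10000 UMIs of a cell, with a median of 563, against a median of 183 in the sum-0 cells.

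**Figure D4:**
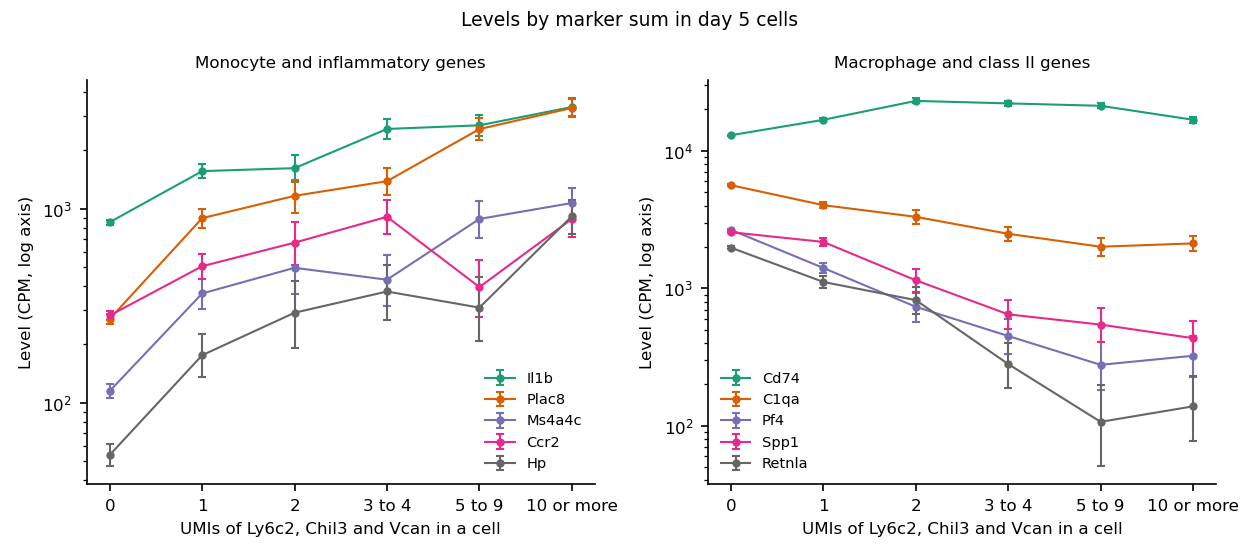
Levels (CPM, log axis) of 5 monocyte and inflammatory genes (left) and 5 macrophage and class II genes (right) in day 5 cells by marker sum, with exact Poisson 95% intervals; the classes hold 1816, 106, 28, 30, 24 and 26 cells. Plac8 climbs to 3302 CPM and Il1b to 3339 CPM in the last class, while Pf4 and Spp1 drop to 323 and 433 CPM there. The upper limits of the rule apply only to the classes with at least 2 UMIs.

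Interferon response genes had the highest median of the lists with at least 2 measured genes. Of 20 measured, 11 were at least 2-fold higher in the monocyte-type cells and 0 lower, with a median log2 ratio of 1.01, against 0.14 for all genes. Irf7, a transcription factor that amplifies the response, stood at 356 CPM in the monocyte-type cells and 135 CPM in the sum-0 cells, a ratio of 2.64 (2.19 to 3.17), and was detected in 46 of the 108 cells. Isg15, a ubiquitin-like protein induced by interferon, stood at 453 against 180 CPM, a ratio of 2.52 (2.13 to 2.96), and the guanylate-binding protein gene Gbp2 at 67.2 against 17.0 CPM. Ifit2 had the largest ratio of all genes that reached 100 CPM, at 105 against 8.63 CPM, but 28 of its 42 UMIs were in 1 cell. Usp18, at 105 against 27.6 CPM, had 20 of its 42 UMIs in 1 cell. Without the top cell of each gene 7 of the 20 were at least 2-fold higher and the median was 0.89; with the rule applied to thinned cells, the log2 ratio of Usp18 was -0.02 in place of 1.92.

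The interferon genes differed between the cells led by Ly6c2 (67 cells) and those led by Chil3 (38 cells). Between these groups 13 genes of the list had at least 100 CPM in either; 8 were at least 2-fold higher in the Ly6c2-led cells and 1 was at least 2-fold lower, with a median log2 ratio of 1.35. Among all 1651 genes at that level, 7.39% were at least 2-fold higher, 7.39% at least 2-fold lower, and the median was 0.02. Irf7 stood at 497 CPM in the Ly6c2-led cells and 136 CPM in the Chil3-led cells, a log2 ratio of 1.87 (1.18 to 2.63). Isg15 stood at 631 against 163 CPM, and Bst2, which codes for the membrane protein tetherin, at 933 against 245 CPM. Gbp2 had 27 UMIs, or 110 CPM, in the Ly6c2-led cells and 0 UMIs in the Chil3-led cells, at least 5.39-fold higher with a floor of 3 UMIs over the group.

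Without the top cell of each gene, 6 of the 13 interferon genes were at least 2-fold higher in the Ly6c2-led cells and 0 lower, with a median of 0.90. The exception among the 13, the chemokine gene Cxcl10, had stood at 36.6 CPM in the Ly6c2-led cells against 157 CPM in the Chil3-led cells, and 20 of its 23 UMIs in the Chil3-led cells came from 1 cell. Summed over the list, a Ly6c2-led cell held a median of 84.7 interferon UMIs per 10000 and a Chil3-led cell 38.8, against 35.1 in the sum-0 cells. In the plot of interferon genes, the Chil3-led cells lay near the sum-0 cells for Isg15, Irf7 and Rtp4, above them for Ly6e and Ifi204, and below them for Bst2 (245 against 630 CPM) and Ifi27l2a (1232 against 1680 CPM).

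**Figure D5:**
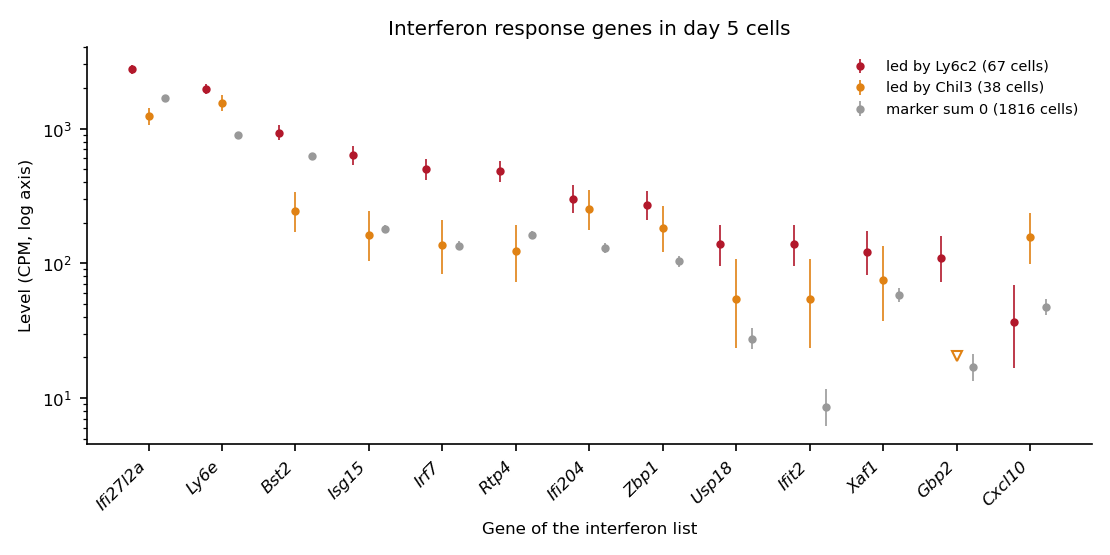
Levels (CPM, log axis) of the 13 compared interferon genes in the Ly6c2-led (red), Chil3-led (orange) and sum-0 (grey) cells of day 5, with exact Poisson 95% intervals; the open triangle marks Gbp2 in Chil3-led cells, at 0 UMIs and drawn at the floor of 3 UMIs. For Irf7 the red point lies at 497 CPM, above the orange at 136 CPM and the grey at 135 CPM.

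Other genes separated these groups as well. Plac8 stood at 2671 CPM in the Ly6c2-led cells and 1334 CPM in the Chil3-led cells (log2 ratio 1.00, 0.77 to 1.24), and Ms4a4c at 941 against 395 CPM (1.25, 0.83 to 1.69). Retnla stood at 456 against 122 CPM. In the other direction, Spp1 stood at 464 against 1041 CPM (-1.17, -1.53 to -0.81) and Ccr1 at 200 against 456 CPM (-1.19, -1.75 to -0.64). Ccr2, at 700 against 796 CPM, and Hp, at 472 against 531 CPM, had intervals of the log2 ratio that held 0. The classical monocyte list as a whole had 2 of 26 genes at least 2-fold higher in the Ly6c2-led cells and 0 lower, with a median of 0.05.

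The promoters of 2 of these interferon genes and of the marker Ly6c2 are shown to give the sequence beside the levels of these genes; no value here links the sequence to a level. Each sequence runs 5′ to 3′ on the strand of the gene, from 250 bases before to 50 after the annotated start, from RefSeq on build GRCm38.p6. Capitals in Isg15 and Gbp2 mark the interferon-stimulated response element, GAAA and GAAA with any 2 bases (NN) between them, or TTTC and TTTC spaced likewise on the other strand, in Isg15 as overlapping matches. Capitals in Ly6c2 mark GAGGAAGT (ACTTCCTC on the other strand), the site type read by PU.1, the master factor of the myeloid lineage.
Isg15, chr4:156200769-156201068, minus strand: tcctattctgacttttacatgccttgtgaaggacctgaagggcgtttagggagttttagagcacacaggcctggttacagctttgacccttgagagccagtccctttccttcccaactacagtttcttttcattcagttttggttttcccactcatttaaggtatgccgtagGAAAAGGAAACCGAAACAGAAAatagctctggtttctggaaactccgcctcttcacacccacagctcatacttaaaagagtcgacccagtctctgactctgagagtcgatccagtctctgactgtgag
Gbp2, chr3:142620413-142620712, plus strand: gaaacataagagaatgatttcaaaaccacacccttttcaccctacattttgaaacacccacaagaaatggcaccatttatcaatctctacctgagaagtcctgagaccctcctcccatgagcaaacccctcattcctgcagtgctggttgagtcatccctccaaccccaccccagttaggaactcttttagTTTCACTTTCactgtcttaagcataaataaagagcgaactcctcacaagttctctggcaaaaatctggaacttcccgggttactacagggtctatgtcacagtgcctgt
Ly6c2, chr15:75111922-75112221, minus strand: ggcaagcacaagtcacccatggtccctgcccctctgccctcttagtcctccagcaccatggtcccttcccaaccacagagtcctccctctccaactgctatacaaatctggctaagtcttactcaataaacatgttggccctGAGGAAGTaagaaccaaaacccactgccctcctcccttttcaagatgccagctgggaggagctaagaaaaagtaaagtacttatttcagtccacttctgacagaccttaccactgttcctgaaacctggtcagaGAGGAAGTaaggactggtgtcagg
Searched on both strands, the response element was in 1131 of 32851 promoters of the same length (3.44%) and the PU.1 type site in 1052 (3.20%). Of the 24 interferon genes 17 had a promoter in the table, and 9 of these held the response element; of the 8 genes higher in Ly6c2-led cells, Isg15, Bst2 and Gbp2 held it, Irf7 and Ifit2 did not, and Usp18, Ifi27l2a and Rtp4 were not in the table. Cxcl10, which stood higher in Chil3-led cells, held it too. Without the top cell of each gene, Cxcl10, Ifit2 and Usp18 were not past 2-fold in either direction. Their log2 ratios of Ly6c2-led over Chil3-led cells were then 0.26, 0.26 and 0.74. Neither motif was in the listed promoters of Plac8, Ms4a4c or Chil3. A match is a description of these letters and not a bound site.

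The second comparison set the monocyte-type cells of day 5 against those of day 1. Of the class II list 7 of 9 genes were at least 2-fold higher at day 5, and of the wound repair list 7 of 14 were at least 2-fold lower. Of the 2747 genes that reached 50 CPM in 1 of the groups, 168 were at least 2-fold higher at day 5 (6.12%) and 268 at least 2-fold lower (9.76%), and the median log2 ratio of all genes was -0.12. The counts under median-of-ratios scaling were 207 and 225. The Arg1 limit of the rule removed 701 day 1 cells and 7 day 5 cells, so the day 1 group is the Arg1-low share of the cells with the markers. Without the upper limits, 174 genes were at least 2-fold lower at day 5.

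Several monocyte genes stood close together at both times under the rule as given. Plac8 stood at 2129 CPM at day 5, against 2065 CPM at day 1, a ratio of 1.03 (0.949 to 1.12), and Ms4a6c at 1275 and 1292 CPM, a ratio of 0.986 (0.886 to 1.10). The interval for Ms4a4c, at 724 and 647 CPM, also held 1 (ratio 1.12, 0.968 to 1.29). Ccr2 stood at 727 CPM at day 5, against 545 CPM at day 1, a ratio of 1.33 (1.15 to 1.55), and Hp at 485 and 793.5 CPM. At 1000 UMIs per cell, Plac8 was found in 65.7% (55.8 to 74.7) of the cells at day 5 and in 61.9% (55.5 to 68.0) at day 1. With the rule on thinned cells the log2 ratio of day 5 over day 1 was 0.60 for Plac8, 0.53 for Ms4a4c and 0.21 for Ms4a6c. Without the upper limits it was 0.42, 0.41 and 0.28. Hp had -0.71, or 0.01 with the rule on thinned cells. Thinning eased the upper limits as well, so the values from thinned cells are not a correction for depth alone.

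Other classical monocyte genes were lower at day 5. Of 30 measured, 14 were at least 2-fold lower and 1, the lysozyme gene Lyz1, higher (log2 ratio 1.08, or 0.92 in Ly6c2-led cells), with a median log2 ratio of -0.76. S100a10 stood at 478 CPM at day 5 against 1662 CPM at day 1 (3.48 times lower, 2.99 to 4.07) and S100a11 at 453 against 1433 CPM (3.16, 2.70 to 3.72). Clec4d stood at 42.3 against 330 CPM and the glycoprotein gene Lrg1 at 32.4 against 312 CPM. In the sum-0 cells of the same libraries the log2 ratio of day 5 over day 1 was -1.33 for S100a10, -1.59 for S100a11 and -2.24 for Clec4d. Of 28 genes of the list measured in the sum-0 cells, 15 were at least 2-fold lower at day 5 and 1 higher (median -1.11). The lower levels at day 5 were thus not particular to the monocyte-type cells.

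MHC class II genes were higher at day 5. Of 9 measured, 7 were at least 2-fold higher and 0 lower, with a median log2 ratio of 2.04. H2-Eb1, a class II beta chain, stood at 6152 CPM at day 5 against 742 CPM at day 1, a ratio of 8.30 (7.60 to 9.07). Cd74 stood at 20726 against 3793 CPM, a ratio of 5.46 (5.25 to 5.69), and H2-Ab1 at 12202 against 1754 CPM (6.95, 6.56 to 7.38). A UMI of H2-Eb1 was found in 78.1% (69.0 to 85.6) of the thinned cells at day 5 and in 21.3% (16.3 to 27.0) at day 1.

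The sum-0 cells also had more class II RNA at day 5, with a smaller ratio. Over all 2533 genes measured in them, 89 (3.51%) stood past 2-fold higher at day 5 and 156 (6.16%) past 2-fold lower, or 119 and 110 with median-of-ratios scaling. In them H2-Eb1 stood at 4253 CPM at day 5, against 1488 CPM at day 1, a log2 ratio of 1.52 where the monocyte-type cells had 3.05, and Cd74 had 1.34 where the monocyte-type cells had 2.45. Dendritic cells also express class II genes, and their markers were higher at day 5: the list stood at 192 CPM in the day 5 cells, with 14 of 108 cells holding at least 2 UMIs of it, against 59.0 CPM and 9 of 255 cells at day 1. Both measured genes of the list were at least 2-fold higher, Batf3 and Cd209a, the second with 20 of its 23 day 5 UMIs in 1 cell. Without the cells holding at least 2 such UMIs the class II median was 2.09, and without the upper limits it was 2.76.

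Macrophage maturation genes were also higher at day 5, with 12 of 27 at least 2-fold higher, 4 lower and a median log2 ratio of 0.65. Apoe stood at 39790 CPM at day 5 against 9777 CPM at day 1, C1qa at 2467 against 987 CPM, the phospholipid transfer gene Pltp at 222 against 35.4 CPM and Axl, a receptor for dying cells, at 87.1 against 11.8 CPM. Pf4 went the other way, at 441 against 2356 CPM. Among 15 transcription factors only Cebpb was past 2-fold, at 1168 CPM at day 5 against 322 CPM at day 1, a ratio of 3.63 (3.12 to 4.23). Ramp1, part of the receptor for the nerve peptide CGRP, stood at 187 against 28.3 CPM; in the sum-0 cells its log2 ratio was 2.90 and in the monocyte-type cells 2.72.

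Wound repair genes were the list with the lowest median, -1.11, with 7 of 14 past 2-fold lower and 1 past 2-fold higher, Igf1. Slpi, a protease inhibitor of fresh wounds, had 3 UMIs in the day 5 cells (7.47 CPM) against 507 UMIs at day 1 (598 CPM), 80.0 times lower (27.2 to 389). Timp1, an inhibitor of matrix proteases, had 1 UMI at day 5 and 91 at day 1. Ppbp, a platelet chemokine, had 0 UMIs at day 5 against 54 at day 1, at least 8.52-fold lower, and Cxcl3, a neutrophil chemokine, 0 against 62, at least 9.79-fold lower, each with a floor of 3 UMIs over the group. Both genes enter the list medians at these bounds. Saa3, an acute phase gene, stood at 22.4 CPM at day 5 against 430 CPM at day 1, with 7 of its 9 day 5 UMIs in 1 cell. Neutrophil genes, at 0 UMIs in the day 5 cells, gave 99 UMIs (117 CPM) in the day 1 cells, led by Lcn2 with 30, and 16 of the 255 cells held at least 2 of them; their part in these ratios was not tested.

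Some inflammatory and glycolysis genes were lower at day 5. Of 17 inflammatory genes 5 were at least 2-fold lower and 0 higher (median -0.38), including the chemokine genes Ccl6, at 3585 CPM at day 5 against 9925 CPM at day 1, and Cxcl2, at 1008 against 2694 CPM. Il1b did not follow, at 2587 CPM at day 5, against 1955 CPM at day 1. Of 16 glycolysis and hypoxia genes 6 were at least 2-fold lower and 0 higher (median -0.53), with the glycolytic enzyme gene Pgk1 at 7.47 against 140 CPM and Bnip3, a gene of mitochondrial clearance, at 12.4 against 62.5 CPM. The sum-0 cells had such differences between the days too: 8 of 17 inflammatory genes (median -0.60), 15 of 17 glycolysis and hypoxia genes (median -1.36) and 10 of 17 wound repair genes (median -1.16) were past 2-fold lower in them at day 5, and 15 of 27 maturation genes past 2-fold higher (median 1.09).

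The contrast with sum-0 cells was also taken within day 1, where 119 of 2653 genes (4.49%) stood past 2-fold higher in the monocyte-type cells and 72 (2.71%) past 2-fold lower. Of 30 classical monocyte genes 12 were higher and 0 lower there (median 0.71), of 16 interferon genes 2 and 0 (median 0.58), and of 26 maturation genes 0 and 6 (median -0.38). Class II genes had 0 higher and 1 lower of 9, with a median of -0.32, where the median at day 5 was 0.66. Class II was not the only list whose median changed sign. Glycolysis and hypoxia genes had 0.54 at day 5 and -0.32 at day 1, and wound repair genes 0.05 and -0.07. These differences between the days were not tested.

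The remaining lists had few genes past 2-fold between the days. Of 20 interferon genes 2, Gbp2 and Ifit2, stood past 2-fold higher and 0 past 2-fold lower (median 0.26). Ifit2 rested on 42 UMIs in 8 of 108 cells at day 5 and 11 UMIs in 4 of 255 cells at day 1. Its log2 ratio was 3.01, or 2.89 without the top cell of each group, and ran from 1.50 to 5.55 over the alternatives. Of 19 lysosome and lipid genes 1 was higher and 2 were lower (median 0.07), and of 19 adhesion genes 0 and 2 (median -0.19). Among 17 immediate early genes Egr2 was at least 2-fold higher (log2 ratio 1.19, or 0.23 with the rule on thinned cells) and 0 were lower (median 0.30). Of 6 sheath macrophage genes Retnla was higher, at 326 CPM in 42 of 108 cells at day 5 against 62.5 CPM in 5 of 255 cells at day 1, and 2 were lower (median -0.04). The log2 ratio of Retnla was 2.38 and ran from 1.03 in Ly6c2-led cells to 4.56 without the upper limits. Of 6 cell cycle genes Hmgb2 was higher (1.12, or 0.92 in Ly6c2-led cells) and 0 were lower, and Pou2f2, a nonclassical monocyte factor, stood at 137 against 37.7 CPM.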

How the data were processed

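Single cells of sciatic nerve were measured by 10x Genomics chemistry version 1 in 3 libraries (steady state, and 1 and 5 days after crush). The authors deposited UMI counts per gene and cell, made with Cell Ranger 2.0.2 on mm10 per the submitters' processing notes. Cells with under 200 genes or over 10% mitochondrial UMIs were left out (6 of 5586). A deposited table pooling the libraries was not used.

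UMI counts were summed over the cells of a group and scaled to CPM, with Python 3.11.15, numpy 2.4.6, scipy 1.17.1 and pandas 2.3.3. Levels have exact Poisson intervals, ratios exact conditional binomial ones and shares exact (Clopper-Pearson) binomial ones, at 95%. Genes needed at least 50 CPM in either group, and at least 2-fold was counted as higher or lower. For shares, cells were thinned to 1000 UMIs with seed 1. Scrublet, run through scanpy 1.11.5, called 0 of 2059 day 5 cells and 1 of 2793 day 1 cells, which is too few to have worked, so doublets remain possible.

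Named genes were the 8 with the largest ratio upward and the 8 downward that reached 100 CPM, all measured classical monocyte genes and up to 4 per other list by absolute log2 ratio, from 23 lists. Other named genes, such as C1qa, Apoe, Cebpb against sum-0 cells, Isg15, Bst2, Rtp4 and Ifi27l2a, and the split by leading marker gene were chosen after their values were seen. The members and lists were chosen with earlier results of these data known. The ratios and the counting of genes were tested on Poisson counts simulated for the group sums, without variation between cells. For the comparison with sum-0 cells, 200 of 200 genes changed 4-fold were recovered among 2223, and for the comparison with day 1, 200 of 200 among 2424. This setting cannot show how 2-fold calls fare when single cells hold most UMIs of a gene. Alternatives covered the threshold, upper limits, thinning, depth, doublets, dendritic genes, scaling and the filter on low values.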

Additional observations from a re-analysis of the deposited data

Results flagged for a closer look

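For 8 flagged genes the ratio of monocyte-type to sum-0 cells lay on opposite sides of 1 at day 5 and at day 1. Their intervals left out 1 on both days. They were not the only genes to change sides. Of the glycolysis and hypoxia list, 12 of 13 measured genes lay above 1 at day 5 and 5 of 18 at day 1. The differences between the days were not tested. H2-Ab1 had a log2 ratio of 0.73 at day 5 (12202 CPM in monocyte-type and 7369 CPM in sum-0 cells) and of -0.56 at day 1 (1754 and 2580 CPM). Another 3 class II genes did the same: Cd74 had 0.67 and -0.44, H2-Aa 0.66 and -0.62, and H2-Eb1 0.53 and -1.004. H2-DMb1 (1.09 and 0.39) and H2-DMa (0.79 and 0.82) lay above 0 on both days. Il1rn, the interleukin 1 receptor antagonist gene, had 0.94 and -0.35, and Hmgb2, a chromatin protein gene of cycling cells, 0.39 and -0.38. Fcgr2b, an inhibitory antibody receptor gene, had 0.47 and -0.22. S100a10 ran the other way, with -0.27 at day 5 (478 and 578 CPM) and 0.20 at day 1 (1662 and 1451 CPM).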

How the results depend on the processing

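No paired analysis was possible because each time point was 1 library. Against sum-0 cells, 1164 of 1305 alternative log2 ratios of 87 named genes kept their direction and size, 136 moved and 5 turned. Against day 1 these were 1183 of 1335 for 89 genes, 150 and 2. These totals include settings that could not change the ratio of a named gene. They are the filters at 100 CPM, at 20 CPM and without a limit, and the removal of cells called by Scrublet. Each of them kept all 87 and all 89 ratios by construction, and the Scrublet setting could not move a list median either. List medians moved in 4 of 195 alternatives in each comparison. The ratios that turned were those of Wdr45 against sum-0 cells (-1.57 with the rule on thinned cells, -1.25 without the top cell, -0.034 in Ly6c2-led cells), Usp18 (-0.023 with the rule on thinned cells) and Tmub2 (-0.021 without the top cell), and, against day 1, Wdr45 (-0.47 with the rule on thinned cells) and Tmub2 (-0.080 in Ly6c2-led cells). Counts of genes at least 2-fold higher and lower followed the number of genes tested. At 100 CPM they were 78 and 48 against sum-0 cells and 74 and 136 against day 1, with 95 lower at day 5 in the sum-0 cells. At 20 CPM they were 409 and 346, 450 and 628, and 208 and 271 in the sum-0 cells. With no filter they were 4494 and 1057, 2737 and 1242, and 1719 and 2114. Without upper limits 174 genes were lower at day 5 than at day 1. A marker sum of 1 gave 185 cells. The rule on thinned cells gave 58 cells, 338 genes higher and 159 lower than in sum-0 cells, and 261 higher than at day 1. Leaving out the top cell of each gene, an alternative chosen after seeing the data, gave 98 and 146 against sum-0 cells and 108 higher than at day 1. Ly6c2-led cells, also added later, gave 288 and 411 against day 1. Apart from the filters on low values, the cause of these shifts was not tested. The share of cells with Plac8 was 79.4% at 2000 UMIs and 85.2% unthinned, and with Ccr2 61.9% and 76.9%, since deeper cells hold more UMIs. Depth limits genes below 7.47 CPM, which is 3 UMIs in the 108 cells.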

Other observations

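The markers were nearly absent from uninjured nerve: all 23 UMIs of Ly6c2 and all 16 of Chil3 in that library were in the 3 cells that met the rule, out of 728. At day 5, macrophage genes of the outer sheath were unevenly spread among the monocyte-type cells, with 5 of the 108 cells holding 48.7% of their UMIs and 27 holding none.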
